A study of Mus musculus with 6 samples.

Results

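The mitochondrial ribosomal protein genes were examined in RNA-Seq of mouse livers that lack Spns1, the gene of a lysosomal lysolipid transporter. They were taken as every protein-coding gene of the deposited table whose symbol is Mrps or Mrpl followed by a number and, where present, a letter. This gave 78 of the 54532 genes listed, 29 named for the small subunit (Mrps) and 49 for the large subunit (Mrpl). The comparison was between 3 gSpns1-cKO livers and 3 control livers, with 1 library per mouse, and the symbols did not depend on any measured value.

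According to the study's methods, gSpns1-cKO mice carried floxed Spns1 alleles and a tamoxifen-inducible Cre recombinase, CreERT2, expressed from the Rosa26 locus. Tamoxifen at 50 mg/kg was injected on postnatal days 11, 13 and 15 to remove exon 3 of Spns1. Because Rosa26 is active in most tissues, the deletion was not restricted to hepatocytes or to the liver, and any response of the liver may include responses to the loss of Spns1 elsewhere. The methods describe floxed littermates without Cre as controls, whereas the sample labels call these animals wild type. The labels used here give neither the age at collection nor the sex of the 6 mice, and no extraction or sequencing batch.

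The libraries held between 30350002 and 35295611 counts on genes, and members that could be tested had between 260 and 3321 counts in each library. Spns1 itself was lower in gSpns1-cKO livers, with 35.9, 50.7 and 34.6 CPM (counts over the library size after TMM scaling) in control livers and 17.8, 30.6 and 17.8 CPM after the deletion. Its log2 fold change was -0.87 with a standard error of 0.25 and an edgeR adjusted p of 0.0300, and the groups did not overlap. Scaled by library size alone, the value was -0.43 with an adjusted p of 0.213, and leaving out control replicate 2, gSpns1-cKO replicate 1 or gSpns1-cKO replicate 3 gave adjusted p-values of 0.0785, 0.0910 and 0.0830. Reads outside exon 3 can still come from the deleted allele.

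Mitochondria carry their own ribosomes, which translate the few mRNAs of the mitochondrial genome into core subunits of the respiratory chain and ATP synthase. The mitochondrial genome provides the rRNAs of these ribosomes, but all of their proteins are encoded in the nucleus, made in the cytoplasm and imported. Some are counterparts of bacterial ribosomal proteins and others are found only in mitochondria. The liver, with hepatocytes rich in mitochondria, is a tissue in which inherited defects of these proteins can show.

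Many promoters of genes for mitochondrial proteins carry letters bound by NRF1, by ETS factors such as GABP, and by YY1. Of the 78 members, 69 were found in the RefSeq promoter table of build GRCm38.p6, which holds 250 bases before to 50 bases after each start. Mrpl4, Mrpl13, Mrpl15, Mrpl19, Mrpl38, Mrpl54, Mrps28, Mrps34 and Mrps35 had no entry. Both strands were searched for the NRF1 motif, for CCGGAAG (ETS) and for AAGATGGC (YY1), and no member had matches of different motifs that shared letters. The NRF1 letters were present in 18.8% of members and 5.19% of the 27025 symbols in the table. The ETS letters were present in 37.7% and 9.93%, and the YY1 letters in 17.4% and 3.19%. At least 1 of these was found in 43 members, or 62.3%, beside 16.4% of all symbols. CCAAT was present in 39.1% of members and 41.1% of all symbols, TATAAA in 7.25% and 15.7%, and CACGTG in 7.25% and 8.09%. For ZNF143 only 1 fixed string of letters was searched, and it was found in 0 of 69 members and 0.322% of all symbols. Variants of that string were not searched, so the 0 does not show that these promoters lack ZNF143 motifs.

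A set of 5 of these promoters are shown to set genes that fell in gSpns1-cKO livers beside genes that did not pass the test, each with and without such letters. They are the 120 bases before the start, read 5′ to 3′ on the strand of the gene, in GRCm38.p6, and none overlaps an annotated exon. Capitals mark the ETS or NRF1 letters on either strand. Mrpl34 lies at chr8:71464806-71464925, Mrpl45 at chr11:97315596-97315715 and Mrpl2 at chr17:46646101-46646220, all on the plus strand, and all were lower after TMM scaling. Mrps22 lies at chr9:98601680-98601799 on the minus strand and Mrps2 at chr2:28467946-28468065 on the plus strand, and neither passed the test.
Mrpl34: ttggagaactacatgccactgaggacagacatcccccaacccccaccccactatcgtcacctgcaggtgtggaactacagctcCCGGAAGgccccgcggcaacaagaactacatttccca
Mrpl45: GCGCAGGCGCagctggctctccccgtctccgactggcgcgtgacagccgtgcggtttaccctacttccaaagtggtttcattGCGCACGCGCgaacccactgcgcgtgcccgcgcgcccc
Mrpl2: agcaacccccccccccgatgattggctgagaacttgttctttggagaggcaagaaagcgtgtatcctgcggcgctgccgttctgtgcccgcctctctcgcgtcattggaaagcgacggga
Mrps22: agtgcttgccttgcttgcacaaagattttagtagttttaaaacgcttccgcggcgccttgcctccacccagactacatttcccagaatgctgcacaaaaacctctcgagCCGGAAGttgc
Mrps2: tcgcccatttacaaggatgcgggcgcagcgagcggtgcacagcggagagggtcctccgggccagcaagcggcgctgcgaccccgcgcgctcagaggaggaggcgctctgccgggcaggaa

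Matching letters were found on both sides of the test. At least 1 of the 3 motifs was present in 34 of 51 members that were lower and in 8 of 17 that were not called, and the median log2 fold change was -0.43 for members with and -0.40 for members without them. The NRF1 letters were in 12 of 51 lower members and in 1 of 17 not called. The ETS letters were in 18 and 7, and the YY1 letters in 10 and 2. These differences were not tested. For the NRF1 letters alone the medians were -0.44 and -0.41, for the ETS letters -0.42 and -0.41, and for the YY1 letters -0.54 and -0.41. A match here is a description of letters in a window, not a measured binding site.

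After TMM scaling, mRNAs of the mitochondrial ribosomal proteins were lower in gSpns1-cKO livers, whereas scaled by library size alone they were level and the typical gene was higher. With TMM, which sets the typical gene at about no change, 57 of the 77 members tested were lower at an edgeR adjusted p under 0.05, 20 were not called and 0 were higher. Over all 15449 genes tested, 20.5% were lower and 21.3% were higher, and 41.8% were called in either direction. Among the 8010 genes that averaged 10 CPM or more, a range of levels closer to that of the members, 31.5% were lower and 13.7% were higher. No member was higher at an unadjusted p under 0.05, and DESeq2 and limma-voom called 0 higher and 55 and 57 lower. Leaving out 1 liver at a time left between 36 and 52 members lower, the fewest without gSpns1-cKO replicate 3, where the calls over all genes fell as well, to 2125 lower and 2365 higher.

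The median log2 fold change of the members was -0.41 beside 0.01 for all genes tested and -0.15 for genes with at least 10 CPM. The quartiles were -0.50 and -0.32, and the full range was from -0.86 to 0.20. In all, 14 members were below -0.6, 32 between -0.6 and -0.4, 19 between -0.4 and -0.2, 6 between -0.2 and 0, and 6 above 0. The median standard error was 0.11. Control and gSpns1-cKO livers did not overlap for 61 members that were lower and for 1 that was higher, Mrpl3, against 26.9% and 27.1% of all genes tested, 54.1% in all. Among genes that averaged 10 CPM or more, 39.4% lay apart on the lower side.

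**Figure D1:**
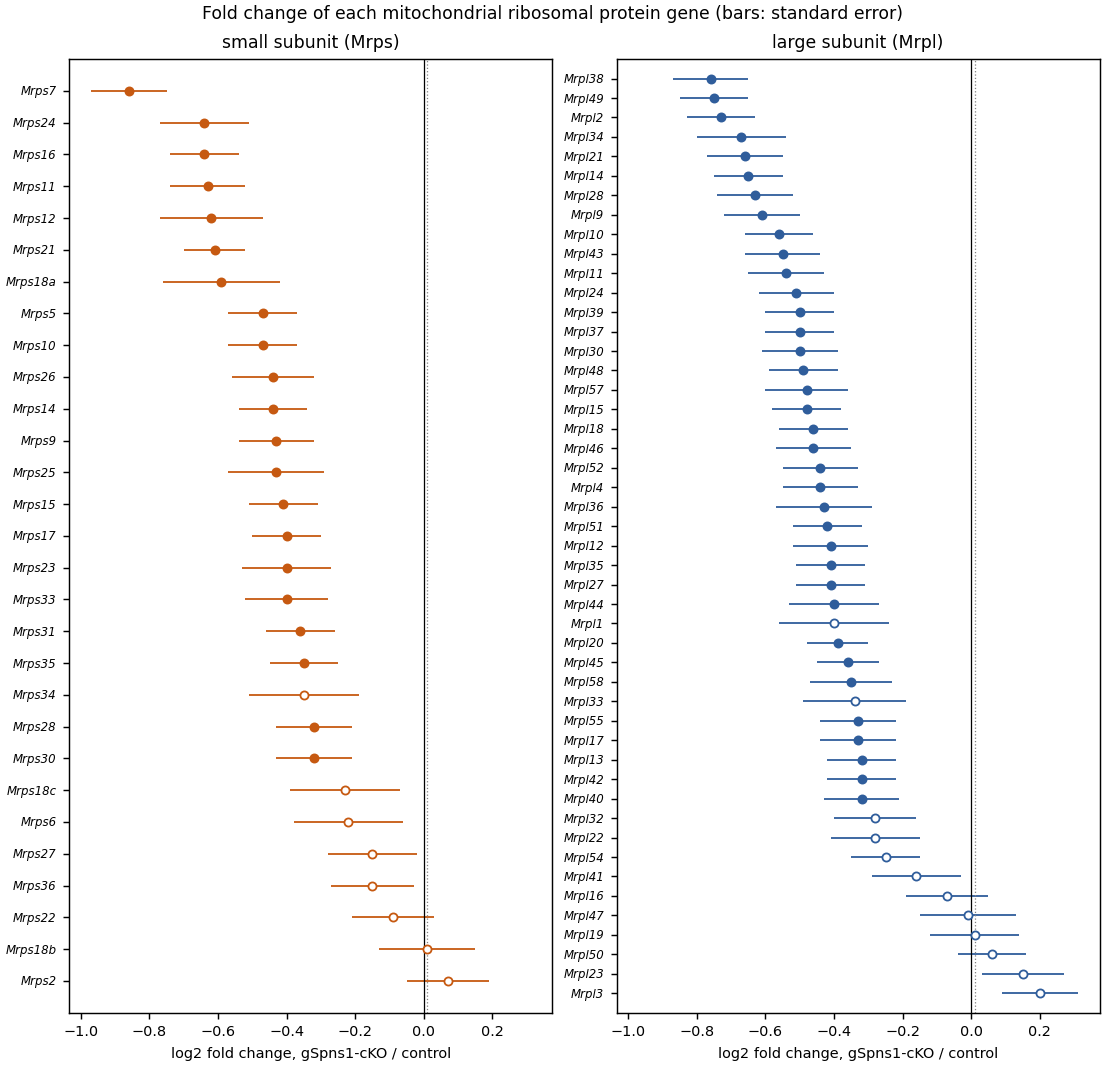
Log2 fold change (gSpns1-cKO over control, TMM-scaled) of each of the 77 members tested, small subunit names on the left and large subunit names on the right, with bars for the standard error, a solid line at 0 and a dotted line at 0.01, the median of all genes. Filled points were lower at an adjusted p under 0.05 and open points were not called. Scaled by library size alone the median of the members moves from -0.41 to 0.04 and that of all genes from 0.01 to 0.46.

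The scaling decided the direction. Without scaling, the members took up 0.276, 0.284 and 0.265% of all counts in control livers and 0.278, 0.284 and 0.268% in gSpns1-cKO livers. These shares overlapped. TMM gave factors of 0.834 to 0.873 to control libraries and of 1.16 to 1.18 to gSpns1-cKO libraries, and after scaling the summed level was 3190, 3260 and 3170 CPM in control livers and 2410, 2410 and 2300 CPM in gSpns1-cKO livers. The gSpns1-cKO sum was then 0.740 times the control sum, with no overlap. Under library size alone, 4 members were lower (Mrps7, Mrpl38, Mrpl49 and Mrpl2) and 9 were higher (Mrpl3, Mrpl16, Mrpl19, Mrpl23, Mrpl47, Mrpl50, Mrps2, Mrps18b and Mrps22), the median of the members was 0.04 and the median of all genes was 0.46. The difference between the median of the members and that of all genes was -0.42 under TMM, upper-quartile scaling and library size alone, as it must be nearly, since a scaling shifts all genes of a library together. Statements of lower and higher below are therefore relative to the typical gene after TMM scaling.

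**Figure D2:**
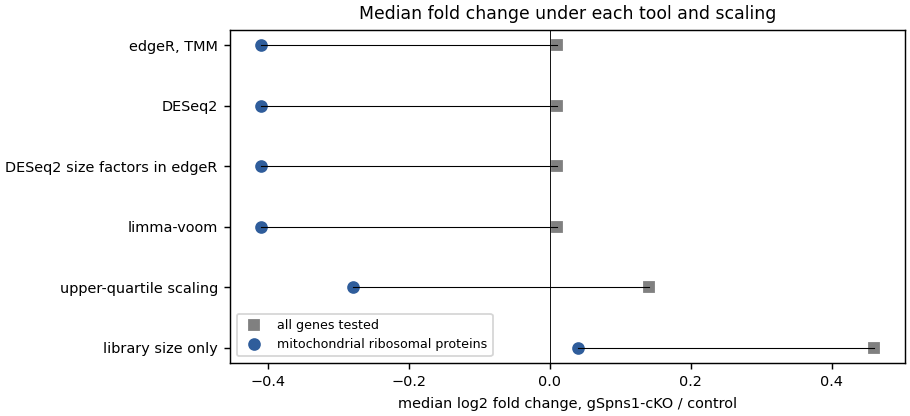
Median log2 fold change of the 77 members (circles) and of all genes tested (squares) under 3 tools (edgeR with TMM, DESeq2 and limma-voom) and 3 other scalings within edgeR. The members lie to the left of all genes in each, at -0.41 with TMM, -0.28 with upper-quartile scaling and 0.04 with library size alone.

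Gene groups of other cells moved with the genotype in the same libraries. All 12 macrophage markers were higher, with a summed level of 213 to 323 CPM in the control and 786 to 1110 CPM in the gSpns1-cKO group, and none of them was at 0 in any library. The 6 cholangiocyte markers (44.4 to 62.9 CPM against 171 to 280 CPM), 6 of 8 stellate markers (192 to 221 against 511 to 557 CPM) and 5 of 6 endothelial markers (137 to 153 against 202 to 249 CPM) were also higher. Of the 6 neutrophil markers, 3 were tested and higher, at a sum between 1.96 and 4.22 CPM in control livers and 5.53 and 10.3 CPM in gSpns1-cKO livers, and the granule genes Elane and Mpo, with Ly6g, did not pass the filter on low counts.

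Most hepatocyte markers went the other way after TMM scaling. Of the 11 hepatocyte markers with a row, 7 were lower, at a sum between 112000 and 122000 CPM in control livers and 67900 and 76800 CPM in gSpns1-cKO livers, with a median log2 fold change of -0.55 that was -0.11 with library size alone, where 1 was lower and 1 higher. Cps1, of the urea cycle, lay apart on the upper side (0.36) and was not called by edgeR (adjusted p of 0.1), while DESeq2 called 9 markers lower and 1 higher. For lymphocytes, 2 of 9 markers were higher and 1 was lower (4.35 to 5.69 against 6.59 to 7.48 CPM), and for cycling cells 0 of 4 passed by edgeR, DESeq2 or at an unadjusted p under 0.05 (3.09 to 6.60 against 2.35 to 11.4 CPM). In whole liver, fewer hepatocytes and less of an mRNA per hepatocyte cannot be told apart, and the part of these markers in the level of the ribosomal protein mRNAs was not tested.

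Both subunits held lower members after TMM scaling, and the difference between them was not tested. Of the small subunit names, 21 of 29 were lower, with a median log2 fold change of -0.40, and of the large subunit names 36 of 48 were lower, with a median of -0.41. With library size alone both medians lost their negative sign, at 0.04 and 0.03. The summed level of the small subunit names was 1010, 1050 and 1000 CPM in control livers and 773, 748 and 711 CPM in gSpns1-cKO livers, and that of the large subunit names was 2180, 2210 and 2170 CPM against 1630, 1660 and 1590 CPM. Each set was lower in every gSpns1-cKO liver than in every control liver.

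The ratio of the small to the large set, with each count divided by gene length, does not depend on the scaling. It was 0.410, 0.421 and 0.414 in control livers and 0.417, 0.408 and 0.400 in gSpns1-cKO livers, so the groups overlapped and the means differed by -1.62%. With the 5 ribosomal proteins of other names added, described further on, it was 0.491, 0.499 and 0.497 against 0.489, 0.487 and 0.480, where the groups did not overlap and the means differed by -2.14%. Placing the proteins by where they sit in the ribosome, which moves Mrps18a and Mrps30 to the large subunit and leaves out Mrps36, gave 19 of 26 lower for the small and 38 of 50 lower for the large subunit, both with a median of -0.41.

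**Figure D3:**
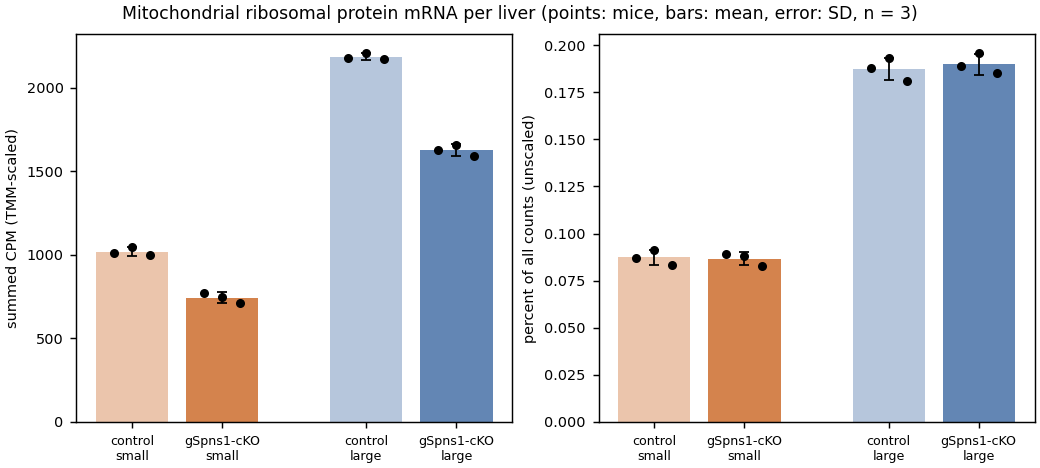
Summed level of the small (orange) and large (blue) subunit names in each liver, as TMM-scaled CPM on the left and as percent of all counts without scaling on the right. Points are mice, bars are means and error bars are SD with n = 3. On the left the 3 gSpns1-cKO livers lie below all control livers for both subunits (711 to 773 against 1000 to 1050 CPM for the small subunit), and on the right the groups overlap.

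Counterparts of bacterial proteins and proteins found only in mitochondria both included lower members. Of 45 bacterial counterparts 33 were lower, with a median of -0.43, and of 30 mitochondria-specific proteins tested 23 were lower, with a median of -0.40. In the small subunit 13 of 16 counterparts and 6 of 10 mitochondria-specific proteins were lower (medians -0.45 and -0.35), and in the large subunit 20 of 29 and 17 of 20 (medians -0.41 and -0.43). The placing of Mrpl55 was not certain, and it was left out of these counts. The differences between these medians were not tested.

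The lowest value of all belonged to Mrps7, the counterpart of a bacterial protein that binds the rRNA in the head of the small subunit. Its level was 93.7, 103 and 105 CPM in control livers and 56.9, 59.6 and 50.2 CPM in gSpns1-cKO livers. Every gSpns1-cKO liver was below every control liver, at a mean of 55.1% of control. The log2 fold change was -0.86 with a standard error of 0.11 and an edgeR adjusted p of 0.000233, the smallest of all members, and with library size alone it was -0.41 with an adjusted p of 0.00843.

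A further 3 members stayed lower with library size alone. Mrpl38, a mitochondria-specific protein of the central protuberance of the large subunit, was at 86.4, 108 and 89.3 CPM in control and 56.0, 53.6 and 58.0 CPM in gSpns1-cKO livers (log2 fold change -0.76). Mrpl49, also found only in mitochondria, was at 33.8, 34.8 and 36.5 CPM against 21.7, 19.9 and 21.0 CPM (-0.75). Mrpl2, the counterpart of a bacterial protein close to the peptidyl transferase centre, was at 74.1, 77.4 and 69.1 CPM against 43.8, 46.4 and 43.1 CPM (-0.73). In each case all gSpns1-cKO livers were below all control livers, and the adjusted p-values from edgeR were between 0.000320 and 0.000615. With library size alone their log2 fold changes were -0.32, -0.30 and -0.28.

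A further 4 members completed the 8 lowest, and these kept a negative sign but did not pass the test with library size alone. Mrpl34, a small counterpart of a bacterial protein whose promoter is printed above, was at 52.5, 68.7 and 56.5 CPM in control and 41.5, 37.0 and 33.5 CPM in gSpns1-cKO livers (log2 fold change -0.67, and -0.23 with library size alone). Mrpl21 was at 24.2, 26.2 and 26.5 CPM against 16.5, 15.5 and 16.6 CPM (-0.66 and -0.22). Mrpl14, a protein of the large subunit's face toward the small subunit, was at 78.3, 70.7 and 78.8 CPM against 49.0, 51.0 and 45.2 CPM (-0.65 and -0.20). Groups were apart in each of these. Mrps24 was at 56.3, 64.8 and 64.5 CPM against 39.6, 45.6 and 33.8 CPM (-0.64 and -0.20), with no overlap.

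**Figure D4:**
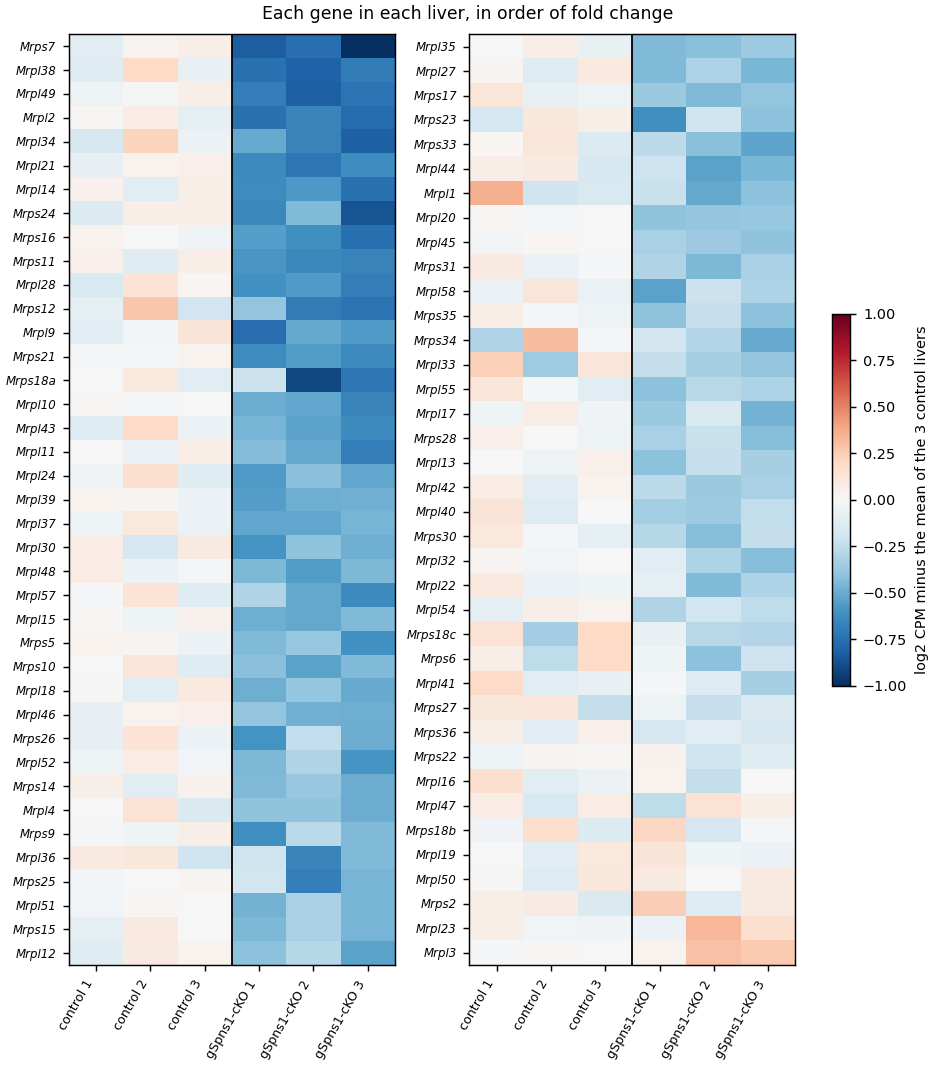
Each of the 77 members tested (rows, in order of fold change, continued from the left to the right panel) in each of the 6 livers (columns), as log2 CPM after TMM scaling minus the mean of the 3 control livers, blue below and red above. The median over members was -0.40, -0.40 and -0.46 in the gSpns1-cKO livers and between 0 and 0.01 in the control livers, and the rows at the lower right, among them Mrpl3 and Mrpl23, show no such decrease. With library size alone the median fold change is 0.04.

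The decrease was shared by the 3 gSpns1-cKO livers. Relative to the control mean after TMM scaling, 70, 73 and 72 of the 77 members were lower in gSpns1-cKO livers 1, 2 and 3. The median coefficient of variation between mice was 7.10% in control and 6.78% in gSpns1-cKO livers. The widest spreads were those of Mrpl1 in control livers, 22.3%, and of Mrps18a in gSpns1-cKO livers, 26%.

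Mrps35, a mitochondria-specific small subunit protein that the study also probed on blots, was at 36.0, 34.0 and 33.1 CPM in control livers and 26, 29.2 and 25.8 CPM in gSpns1-cKO livers. The groups did not overlap, and the log2 fold change was -0.35 with a standard error of 0.10 and an edgeR adjusted p of 0.0217. It was 0.10 with library size alone. The call was lost without control replicate 1 (adjusted p of 0.0585) and without gSpns1-cKO replicate 3 (adjusted p of 0.0953). The study's other blotted mitochondrial markers included VDAC, the outer membrane channel, and OPA1, which fuses inner membranes. The study did not name the VDAC isoform, and the gene Vdac1 was taken here. The log2 fold changes of Vdac1 and Opa1 were -0.26 and -0.26, not called by edgeR (adjusted p of 0.101 and 0.0642). With library size alone both turned positive, at 0.19 and 0.18, and neither was called (edgeR adjusted p of 0.188 and 0.158). Hmox1, heme oxygenase, was higher by 1.90. Of these 4 genes, Mrps35 included, DESeq2 called 2 lower and 1 higher. For the proteins, the study reported VDAC, HMOX1 and MRPS35 as unaltered and OPA1 as reduced. The relation of these mRNA levels to the proteins was not tested.

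The 3 paralogs of Mrps18 differed in their values. Mrps18a, which sits in the large subunit, was at 47.4, 50.9 and 43.9 CPM in control and 40.8, 25.1 and 28.6 CPM in gSpns1-cKO livers (log2 fold change -0.59), with an edgeR adjusted p of 0.0186 and no overlap. Without control replicate 2 or gSpns1-cKO replicate 3 its adjusted p was 0.0648 and 0.0715. Mrps18b was at 12.4, 14.4 and 11.6 CPM against 14.7, 11.4 and 12.6 CPM (0.01, adjusted p of 0.975), and with library size alone it was higher by 0.45. Mrps18c, the counterpart of the bacterial protein, was at 18.6, 13.2 and 19.3 CPM against 16.0, 13.9 and 13.8 CPM (-0.23, adjusted p of 0.265), where control replicate 2 lay below all gSpns1-cKO livers and the other control livers above them, and without that liver the value was -0.39 with an adjusted p of 0.0453. A pseudogene copy of Mrps18b, Gm13552, matched it over 417 bases at 99.8% and held 14.1% as many counts, so its level is less certain. The difference between the paralogs was not tested.

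Mrps30, a protein of the large subunit in spite of its name, was at 24.3, 22.4 and 21.1 CPM in control and 18.5, 16.8 and 19.1 CPM in gSpns1-cKO livers. It had the weakest call of all members, a log2 fold change of -0.32 with an adjusted p of 0.0442 by edgeR and 0.0522 by DESeq2, and 0.12 with library size alone. The call was lost on leaving out any liver other than control replicate 3, with adjusted p-values between 0.0584 and 0.139. Mrps36, which is counted with the ribosome by name but has been assigned to the α-ketoglutarate dehydrogenase complex, was at 12.2, 10.9 and 12.1 CPM against 10.4, 10.9 and 10.5 CPM (-0.15, adjusted p of 0.371).

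The 20 members not called included 14 whose groups overlapped and 6 whose groups did not. Of these 6, 5 lay on the lower side, Mrpl1, Mrpl22, Mrpl32, Mrpl54 and Mrps36, with log2 fold changes between -0.40 and -0.15. The groups of Mrps36 were apart only before rounding, with 10.9 CPM in both control replicate 2 and gSpns1-cKO replicate 2. Mrpl3, a counterpart of a bacterial protein and among the least abundant members per length, was on the upper side, at 19.7, 20.0 and 19.9 CPM in control and 20.4, 24.3 and 23.9 CPM in gSpns1-cKO livers. Its log2 fold change was 0.20 with an adjusted p of 0.173, and with library size alone it was higher by 0.65. The other positive values were those of Mrpl23 (0.15), Mrps2 (0.07), Mrpl50 (0.06), Mrpl19 (0.01) and Mrps18b (0.01), each with overlapping groups. One member was called although its groups touched, Mrpl36, at 36.3, 37.0 and 29.8 CPM against 29.8, 21.7 and 25.1 CPM.

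Levels per kilobase of gene length in control livers spanned 43.4-fold among the members tested. The highest were Mrpl34 at 97.6, Mrpl14 at 80.0 and Mrps21 at 72.3 CPM per kb, and the lowest were Mrpl19 at 2.25, Mrps25 at 2.76 and Mrpl3 at 2.98 CPM per kb. Mrps21, a counterpart of a bacterial small subunit protein, was at 52.7, 53.0 and 54.6 CPM in control and 34.6, 36.3 and 34.3 CPM in gSpns1-cKO livers (log2 fold change -0.61, and -0.16 with library size alone). Mrpl19 was at 12.2, 11.4 and 13.2 CPM against 13.4, 11.9 and 11.7 CPM (0.01). The 3 members highest per kilobase were thus lower with groups apart, and Mrpl19 and Mrpl3 were not called. This ranking, and the grouping by level below, rest on the deposited gene length. By CPM not divided by length, Mrps7 had the highest mean in control livers, 101 CPM, and Mrps6 the lowest, 10.1 CPM. Mrps25 was at 17.7, 18.1 and 18.5 CPM against 15.9, 11.3 and 13.2 CPM (-0.43, adjusted p of 0.0310 by edgeR, and 0.01 with library size alone). Its call was lost on leaving out any of 5 livers, all but gSpns1-cKO replicate 1, with adjusted p-values between 0.0503 and 0.106.

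Among the 26 members with the highest level per kilobase 22 were lower (median log2 fold change -0.48), among the 26 in the middle 21 (-0.41), and among the 25 with the lowest level 14 (-0.34). Across members, Spearman's rho between the fold change and the control level per kilobase was -0.45 over 77 genes, and over all 15449 genes tested it was -0.55. The same counts give both quantities, and genes are not independent replicates. The rho between fold change and gene length was 0.15 for the members and 0.18 for all genes.

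One member could not be followed. Mrpl53 had 0 counts in all 6 libraries, which at a floor of 3 counts allows up to between 0.0763 and 0.119 CPM per library. On chromosome 6 (83109040 to 83109939), 695 of its 790 exonic bases, or 88.0%, are also exonic in Gm42688 on the same strand, which had between 15 and 29 counts per library, and reads that fall on 2 genes may not have been assigned to either.

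Other members also share sequence with neighbours. In GENCODE M21, 42 of the 78 members overlap another gene, 33 share exonic bases and 18 share over 10% of theirs. Whether counting used strand was not given in the sources used here, so for these genes reads of the neighbour may be included or lost. Of the 17 tested members that share over 10%, 10 were lower (median log2 fold change -0.43), and of the other 60, 47 were lower (-0.41). Among those described above, Mrps7 shares 11.9% with Gga3 and Mif4gd on the opposite strand, Mrps18b 30.5% with Gm16279 on the opposite strand and Mrps18c 23.2% with Gm43511 on the same strand. Mrps25 shares 69.8% with Nr2c2 and Mrpl19 36.0% with Gcfc2 on the opposite strand, Mrps24 15.4% with Urgcp on the same strand, and Mrpl14 11.2% with Tmem63b on the opposite strand. Mrps34, which was not called (-0.35), shares 77.8% with its neighbours in all. Processed pseudogene copies of at least 300 bases and 95% identity were found for 18 members, and the largest held 18.6% as many counts as its gene (Mrps33 and Gm5776).

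Many members start close to a gene on the other strand. Starts within 1000 bases of each other on opposite strands, head to head, were found for 33 of the 78 members (42.3%) and for 10.9% of 21918 protein-coding genes. Mrpl46 and Mrps11 face each other on chromosome 7 and were both lower (-0.46 and -0.63, or -0.01 and -0.19 with library size alone). Of the 31 partners that are not themselves members, 27 were tested, with 9 lower, 4 higher and 14 not called and a median of -0.29. Over all genes tested, 20.5% were lower and 21.3% higher, and among those that averaged 10 CPM or more 31.5% and 13.7%. Whether the partners differ from these shares was not tested. Members with a partner had a median of -0.46 with 24 of 33 lower, and members without one -0.40 with 33 of 44 lower.

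Partners of lower members went either way. Mrps7 was lower and its partner Gga3, a clathrin adaptor of the trans-Golgi network, was higher (-0.86 and 0.60). Mrpl13 and Mtbp differed in the same manner (-0.32 and 1.52). Both genes were lower in 6 pairs with a partner that is no member, among them Mrpl2 with Klc4, a kinesin light chain (-0.73 and -0.68), Mrpl36 with Ndufs6, a complex I subunit (-0.43 and -0.86), and Mrps12 with Sars2, the mitochondrial seryl-tRNA synthetase (-0.62 and -0.51). Mrps18c was not called while its partner Helq, a DNA helicase whose start is 29 bases away, was higher by 1.02.

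Proteins of the same ribosome with other names were followed as well. Of 5 such genes, Chchd1 (-0.70), Gadd45gip1 (-0.55) and Aurkaip1 (-0.51) were lower, and Dap3 (-0.15) and Ptcd3 (-0.14) were not called. Chchd1 was at 35, 36.4 and 38.6 CPM in control livers and 21.2, 24.2 and 22.2 CPM in gSpns1-cKO livers, with no overlap. With library size alone the median of the 5 was -0.06 in place of -0.51, with 2 called higher.

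Some factors that build the ribosome or drive translation on it were lower, and the medians of both lists turned positive with library size alone. Of 25 assembly factors 9 were lower and 16 were not called, with a median of -0.22. Scaled by library size alone, 2 were lower and 8 were higher, with a median of 0.22. The most changed were Rbfa, which matures the small subunit, at 48.4, 55.8 and 49.3 CPM against 27.7, 30.6 and 30.3 CPM (-0.79), and Mterf4, which recruits an rRNA methyltransferase to the large subunit, at 17.7, 17.7 and 14.9 CPM against 9.40, 9.67 and 9.92 CPM (-0.79). Both stayed lower with library size alone (-0.35 and -0.35). Of 14 translation factors 4 were lower, led by the initiation factor Mtif3 (-0.59) and the elongation factor Tufm (-0.52), with a median of -0.18. Of these, 0 were lower with library size alone and 4 were higher, with a median of 0.26. The shares lower after TMM scaling, 36% and 28.6%, stand beside 20.5% of all genes tested and 31.5% of those that averaged 10 CPM or more. Whether these shares differ from that of the ribosomal proteins was not tested.

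Enzymes that charge mitochondrial tRNAs moved both ways after TMM scaling, whereas with library size alone 0 were lower and 7 were higher. Of 20, 9 were lower, led by Lars2 (-0.59) and Vars2 (-0.57), and 3 were higher, with Mars2 and Qrsl1 at 0.65 each and Rars2 at 0.49. The median was -0.27, or 0.17 with library size alone. Of 15 genes for replication, transcription and processing of mitochondrial DNA and RNA, 7 were lower, with a median of -0.23. In the fit by library size alone, 1 was lower and 6 were higher, with a median of 0.21. After TMM scaling the shares lower were 45% and 46.7%, and 15% of the charging enzymes were higher. These stand beside 20.5% lower and 21.3% higher of all genes tested, or 31.5% and 13.7% of those that averaged 10 CPM or more. Whether the shares differ was not tested. Polg2, the accessory subunit of the mitochondrial DNA polymerase, was at 12.3, 10.2 and 10.2 CPM against 5.25, 6.36 and 5.32 CPM (-0.95), with groups apart, and Slirp, which stabilizes mitochondrial mRNAs with Lrpprc, was at 2.92, 2.40 and 2.88 CPM against 1.58, 1.80 and 1.27 CPM (-0.82). Lrpprc itself was at 0.05 and was not called.

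Of 9 regulators known to act on genes for mitochondrial proteins, 1 was lower and 2 were higher, whereas with library size alone 0 were lower and 6 were higher, and the median went from -0.01 to 0.43. Ppargc1b, a coactivator, was lower, at 5.58, 3.34 and 3.28 CPM in control and 2.70, 1.51 and 1.20 CPM in gSpns1-cKO livers (-1.18). Its relative Ppargc1a was higher, at 9.92, 7.73 and 10.5 CPM against 15.1, 32.8 and 21.5 CPM (1.30), and Myc was higher by 1.02. The groups were apart for all 3. The shares called of the 9, 11.1% lower and 22.2% higher, stand beside 20.5% and 21.3% of all genes tested. Nrf1 (0.14), Gabpa (-0.22) and Yy1 (-0.28), whose products bind the letters searched in the promoters, were not called, with adjusted p-values of 0.518, 0.101 and 0.0883 by edgeR. Under library size alone Nrf1 was higher by 0.58 (adjusted p of 0.0149) and Ppargc1b was not called (-0.74, adjusted p of 0.0925).

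The mRNAs that these ribosomes translate were not called. Of the 13 mRNAs of the mitochondrial genome, edgeR called 0, with 1 at an unadjusted p under 0.05, and DESeq2 also called 0. Their summed level was 60900, 39800 and 56300 CPM in control and 48500, 48300 and 50200 CPM in gSpns1-cKO livers, and the control range enclosed that of gSpns1-cKO livers. Their median log2 fold change was 0.14, or 0.59 with library size alone, where 4 were higher. After TMM scaling the single values ranged from -1.48 to 0.75, with 6 negative and 7 positive. The lack of calls therefore does not show that each mRNA was unchanged. The rRNAs of the same genome, mt-Rnr1 (-0.42, adjusted p of 0.148) and mt-Rnr2 (0.16, adjusted p of 0.688), were not called, and their recovery depends on how a library treats rRNA.

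The members were set beside the cytoplasmic ribosomal proteins, which make the rest of the cell's proteins, and the nuclear-encoded subunits of the respiratory chain. The respiratory chain set here includes the Atp5 genes, for subunits of ATP synthase. Differences between the families were not tested. The share lower was 20.5% over all genes tested and 31.5% over those that averaged 10 CPM or more. Of 81 cytoplasmic ribosomal protein genes 14 were lower, or 17.3%, with a median of -0.22, and of 80 respiratory chain genes 41 were lower, or 51.2%, and 1 was higher, with a median of -0.36. With library size alone these medians were 0.23 and 0.09, and that of the members 0.04. The summed counts of the members divided by those of the cytoplasmic ribosomal proteins, per length, were 0.110, 0.117 and 0.111 in control and 0.117, 0.0873 and 0.0947 in gSpns1-cKO livers. Divided by those of the respiratory chain they were 0.143, 0.164 and 0.148 against 0.153, 0.135 and 0.136. Both ratios overlapped between the groups, through gSpns1-cKO replicate 1, and with 3 livers against 3 an exact permutation test could not go below 0.1.

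**Figure D5:**
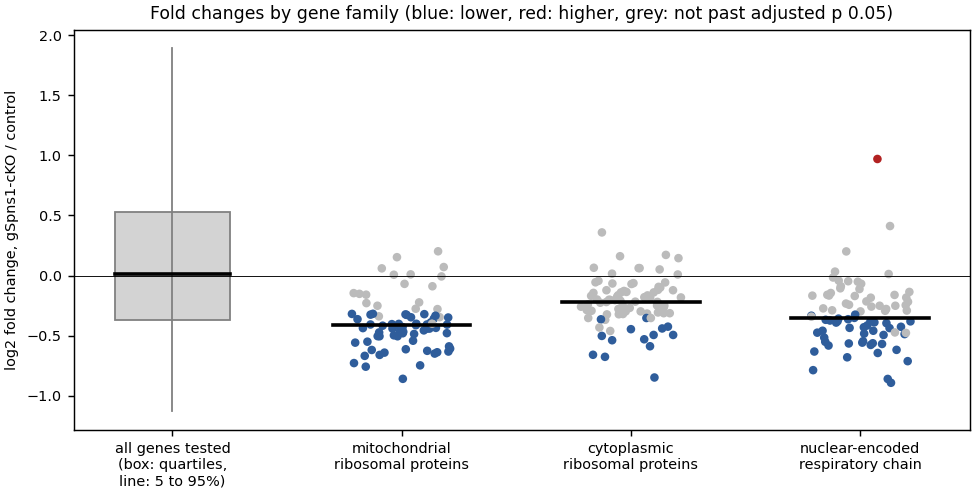
Log2 fold change (gSpns1-cKO over control, TMM-scaled) of all genes tested (box with quartiles, line from the 5th to the 95th percentile) and of each gene of 3 families, with thick lines for medians and colours for the call at an adjusted p under 0.05. The medians were -0.41 for the mitochondrial ribosomal proteins, -0.22 for the cytoplasmic ribosomal proteins and -0.36 for the respiratory chain, ATP synthase included. They become 0.04, 0.23 and 0.09 with library size alone.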

How the data were processed

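Liver RNA-Seq of 3 gSpns1-cKO and 3 control mice was analysed, with groups and replicate numbers from the sample titles. The authors deposited whole-number counts per gene for each mouse, not normalized, and FPKM values, which divide counts by gene length and a library total. According to the submitters' processing notes, fastp, HISAT2 2.0.5 and featureCounts 1.5.0-p3 were used with mm10. The strand setting and annotation release were not given in the sources used here. The deposited columns of group means, fold changes and p-values of the authors' own comparison were not used. The deposited FPKM served only as an alternative.

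Counts were fitted in R 4.3.3 with edgeR 4.0.16 over all genes kept by filterByExpr, with TMM scaling, robust glmQLFit, glmQLFTest and Benjamini-Hochberg adjustment at 0.05, with no covariate. A standard error is the log2 fold change over the square root of F. CPM relate each count to its TMM-scaled library, and CPM per kb divide these by the deposited gene length. The p-values measure the spread between these samples. A chi-square of the counts found no duplicate libraries. The floor is 3 counts and covers counting error only. The procedure was tested on simulated counts with as many genes raised as lowered, so the choice of scaling was not tested by it. Members, gene lists and classes by place in the ribosome were chosen with earlier results of these data known, although the rule for members used symbols only. Named members were Spns1, the 8 lowest and 8 highest fold changes among called members without overlap (none was higher), Mrps35, the Mrps18 paralogs, Mrps30, Mrps36, the 3 highest and 3 lowest levels per kb, untested members, and the 2 most changed genes each way of each list. Other members and partners named in the text, among them Cps1, Rars2, Lrpprc, Mrpl13 and Mtbp, were chosen after their values were seen.

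Coordinates of 73 of 78 members were the same in GENCODE M21 (GRCm38), which gave overlaps and starts, and copies were found with blastn 2.17.0. Promoters are from RefSeq (GRCm38.p6). The alternatives were DESeq2 1.42.0, limma-voom (limma 3.58.1), other scalings and filters, protein-coding genes only, a threshold of 0.01, a replicate block and leaving out each liver. Differences from the median gene, the FPKM ratio and a refit with the median gene set at 0 were added after seeing the data.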

Additional observations from a re-analysis of the deposited data

How the results depend on the processing

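Scaling had the largest effect. With library size alone the median log2 fold change was 0.04 for all members, 0.04 for the small and 0.03 for the large subunit, a reversed sign, with 4 members lower and 9 higher (small subunit 1 and 3, large subunit 3 and 6), and 970 of all genes lower and 7289 higher. Mrps35 (0.10), Mrps18c (0.22), Mrps30 (0.12), Mrps36 (0.30) and Mrps25 (0.01) also changed sign. Refitted with the median gene at 0, library sizes gave 57 lower. This refit sets the typical gene at no change, as TMM nearly does, so it repeats the main fit and is no separate check. With upper-quartile scaling the medians were -0.28, -0.27 and -0.28, with 34 members lower and 1 higher (small subunit 10 lower, large subunit 1 higher). At an adjusted p under 0.01, 35 members (11 of the small subunit) were lower, and of all genes 1907 were lower and 1983 higher.

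With at least 10 counts required in every library the medians were -0.36, -0.36 and -0.37, and the members minus all genes -0.37. With at least 1 count in any library that difference was -0.56. Without 1 liver, between 36 and 52 members (12 to 19 of the small subunit) were lower, the fewest without gSpns1-cKO replicate 3, and the medians ranged from -0.44 to -0.40 (members), -0.45 to -0.39 (small) and -0.45 to -0.40 (large), and the difference from all genes from -0.48 to -0.41. Mrps18b, at 0.01, changed sign with limma-voom (-0.00), with the filter of 1 count (-0.00) and without a liver (-0.10 to 0.09). Mrpl19, at 0.01, did so without a liver (-0.06 to 0.05). The small to large ratio kept its sign under all 3 of its alternatives, and its groups came apart when subunits of other names were added.

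Replicate numbers did not pair the livers. Deviations of same-numbered samples correlated at 0.04, 0.03 and -0.03, and control 3 correlated more with gSpns1-cKO 2 (0.06). The replicate block called 55 members lower. Of the alternatives counted over results of the whole family and of subunits, 169 stayed within the set limits (the side of the threshold, the spread between livers, or a like count), 35 moved and 3 reversed, and for single genes 249 kept direction and call, 37 lost and 5 gained a call and 13 reversed. The cause of these changes was not tested. The alternatives counted are not independent. Those that stayed include counts of members higher that remained at 0, and the same fits counted again for each subunit. They also include the difference from all genes, which must stay nearly the same under any scaling. With 3 livers a group, a fold change near the standard error of 0.11 was not detectable.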
